A study of Macaca fascicularis with 6 samples.

Results

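Genes of bone morphogenetic protein (BMP) and growth differentiation factor (GDF) signaling were examined in single-cell transcriptomes of the cynomolgus monkey. The 10 genes are 4 transcriptional targets (*ID1*, *ID2*, *ID3*, *ID4*), 3 ligands (*BMP2*, *BMP4*, *GDF5*), 2 secreted antagonists (*GREM1*, *NOG*) and 1 intracellular inhibitor (*SMAD6*), chosen by name. Values of 8 of the 10 are given, out of 14020 genes listed in all, and *NOG* and *SMAD6* were not analysed here.

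BMP and GDF ligands bind pairs of serine/threonine kinase receptors, which phosphorylate SMAD1, SMAD5 and SMAD9. These SMADs join SMAD4 in the nucleus and switch on early targets, among which the *ID* genes are widely used as a readout. ID proteins are helix-loop-helix proteins without a DNA-binding region that hold back other helix-loop-helix factors. Secreted antagonists such as gremlin 1 and noggin keep ligands from their receptors. In the skeleton, the pathway is needed for the formation of cartilage, and *GDF5* marks the cells that give rise to joints.

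TAS-Seq, a bead-based single-cell method that reads amplified whole-transcriptome cDNA, was applied to 5 conditions. The undifferentiated iPS cells (cyiPSC) carried an EGFP reporter gene, as did the cartilage organoids made from them (pre-transplant cyiPS-Cart), which had been cultured with BMP2, GDF5 and TGF-β1 and were also digested in medium with 10 ng/mL of each. The organoids recovered after 4 months in chondral defects of knees of monkeys aged 3 to 4 years (post-transplant cyiPS-Cart) are described by the paper as cells of the EGFP line, although their label gives the recipient's wild-type genotype. Articular cartilage without a defect (cyAC) and fibrous tissue from defects left empty (cyFT) were taken from wild-type monkeys of the same age, all of the animals being male. Digestion medium of cyAC and post-transplant cyiPS-Cart held none of these factors, and that of cyFT is not given in the sources used here. Each condition was 1 sample. In the transplantation group 2 sites of each monkey were combined, and how many of the 3 monkeys of a group entered each library is not given in the sources used here.

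cyiPSC (2500 cells) and pre-transplant cyiPS-Cart (3527 cells) formed 1 matrix, with a median of 143075 and 59249 reads per cell. The other matrix held 320 cells each of cyAC, cyFT and cyiPS-Cart before and after transplantation, with medians of 27499.5 to 80335.5 reads. Of its 320 pre-transplant cells, 300 are also in the larger set. In this matrix, mitochondrial genes held 5.51% of reads before and 1.97% after transplantation, 3.60% in cyAC and 3.95% in cyFT. The median number of genes per cell was 3765, 2594.5, 2284 and 2300 in the same order. The part of these differences in the results was not tested. cyiPSC and pre-transplant cells shared a library, as did cyAC and cyFT cells, whereas post-transplant cells had a library of their own, so that condition and library cannot be told apart in the comparisons of post-transplant cells. Between libraries, at most 4 cell barcodes were shared. The list of 7 pluripotency genes summed to 2366 CPM in cyiPSC and to 25.5 CPM or less elsewhere, and the 9 listed chondrocyte genes summed to between 38271 and 85771 CPM in the other conditions. The 9 listed fibroblast genes summed to 25908 CPM in pre-transplant cyiPS-Cart, 71772 in post-transplant cyiPS-Cart, 9201 in cyAC and 48117 in cyFT, and the part of these genes in the results was not tested. Collagens carried these sums, with *COL3A1* at 11792 CPM before and 34539 CPM after transplantation, whereas *POSTN* (2248 and 355 CPM), *FAP* (698 and 430), *PDGFRA* (13.0 and 6.23) and *PDGFRB* (20.5 and 14.3) were lower after it. Against cyAC, *THY1* (94.1 and 278 CPM) and *PDGFRA* (6.23 and 12.6) were lower in post-transplant cyiPS-Cart. *POSTN* (355 and 3.72 CPM), *FAP* (430 and 417) and *PDGFRB* (14.3 and 12.3) were higher in it than in cyAC, as were the listed collagens.

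Levels are reads of a gene summed over the cells of a condition, divided by the reads of all listed genes and multiplied by 1000000 (CPM), and they are compared between conditions, not between genes, since transcript lengths were not used. With 1 sample per condition no test was possible. The 95% intervals given are exact Poisson intervals for levels, exact binomial intervals for shares of cells and exact conditional intervals for ratios, all of which cover counting error only and no spread between animals or cultures. A gene was called higher or lower when the ratio of CPM + 1 was at least 2-fold, among genes with at least 10 CPM in either condition.

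The targets were compared first in the 4-condition matrix. *ID2* was at 81.5 CPM in pre-transplant cyiPS-Cart, 1746 in post-transplant cyiPS-Cart, 726 in cyAC and 821 in cyFT. *ID1* was at 67.3, 653, 184 and 504 CPM in the same order. *ID4* was at 50.4, 245, 71.3 and 124 CPM. All 3 genes thus had the order pre-transplant, cyAC, cyFT and post-transplant from low to high, with no overlap of neighbouring intervals. For *ID1* the top of this order depends on the scaling, as averaging CPM over cells gave 652 in cyFT and 638 in post-transplant cyiPS-Cart, and the summed level after thinning was 615 and 635 CPM. For *ID2* the order of cyAC and cyFT depends on it too, at 749 and 745 CPM with edgeR's TMM factors, which replace the totals. *ID3* was at 12.7, 175, 83.5 and 185 CPM, where the intervals of post-transplant cyiPS-Cart (170 to 180) and cyFT (177 to 193) overlapped, and averaging CPM over cells gave 172 and 230.

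**Figure D1:**
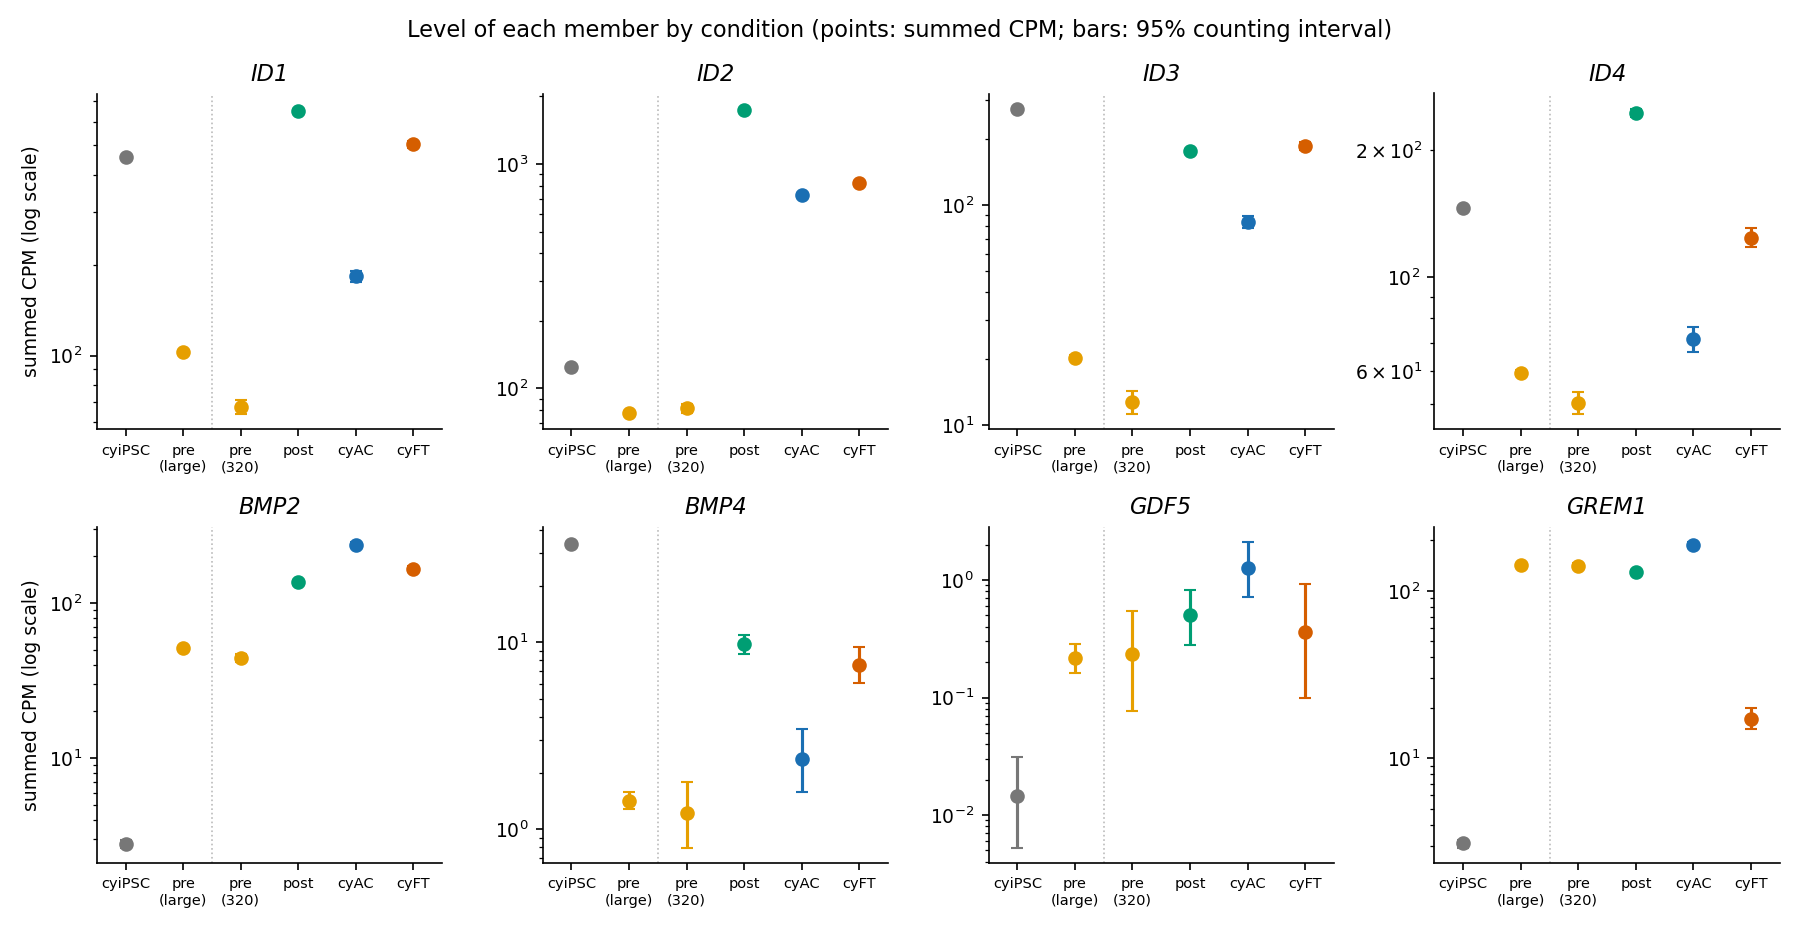
Summed CPM (log axis) of the 8 genes in cyiPSC and the larger set of pre-transplant cells (left of the dotted line) and in the 4 conditions with 320 cells each, with bars for 95% counting intervals. In summed CPM, *ID1*, *ID2* and *ID4* were highest in post-transplant cyiPS-Cart (for *ID1* the mean of per-cell CPM was higher in cyFT), and pre-transplant cyiPS-Cart was lowest for all 4 *ID* genes.

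All 4 *ID* genes were called higher in post-transplant than in pre-transplant cyiPS-Cart, where 8.92% of 7587 genes were called higher and 18.5% lower. The ratio of levels was 21.4 for *ID2* (20.4 to 22.5), 13.8 for *ID3* (12.2 to 15.7), 9.69 for *ID1* (9.19 to 10.2) and 4.86 for *ID4* (4.56 to 5.19). The median log2 ratio of the 4 genes was 3.47, against -0.25 over all genes past the minimum. The pre-transplant organoids, whose medium held BMP2 and GDF5, had the lower level of each of the 4. With edgeR's TMM factors in place of totals, 12.7% of genes were called higher and 12.8% lower, and the 4 genes were still called. With the pre-transplant cells of the larger set in place of the 320, all 4 stayed higher, with the log2 ratio of *ID1* at 2.66. *ID3* was at 20.2 CPM in the larger set against 12.7 CPM in the 320 cells, so that its ratio was smaller too.

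The size of the *ID1* and *ID3* ratios depends on a step of the authors' processing. Low counts of strongly expressed genes had been set to 0 as background, and the lowest count left was 7 reads for *ID1* and 6 reads for *ID3* in the library of pre-transplant cells, against 1 read for both in the library of cyAC and cyFT. In the post-transplant library the lowest count was 7 reads for *ID1* and 1 read for *ID3*. If every 0 among the pre-transplant cells stood for a count just below that floor, *ID1* would be at 141 CPM and *ID3* at 84.3 CPM. The ratio of post-transplant to pre-transplant cyiPS-Cart would then be 4.61 for *ID1* and 2.08 for *ID3*. For *ID2* and *ID4* the lowest count in pre-transplant cells was 1 read, and their ratios do not depend on such a floor.

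Genes of the early response to stress and dissociation moved with these values. The 7 listed genes of that list (*FOS*, *FOSB*, *JUN*, *EGR1*, *IER3*, *DUSP1*, *ZFP36*) summed to 1982 CPM in pre-transplant cyiPS-Cart, 10083 in post-transplant cyiPS-Cart, 2443 in cyAC and 4016 in cyFT. In cells whose sum was at most 1470 CPM, the pre-transplant median, *ID2* was at 82.2 CPM in 160 pre-transplant cells and 1409 CPM in 38 post-transplant cells. *ID1* was at 54.0 and 328 CPM in these cells, *ID4* at 27.7 and 127 CPM, and *ID3* at 4.74 and 212 CPM. All 4 were still called higher after transplantation at a like early response, with log2 ratios of 4.08, 2.58, 2.16 and 5.21 for *ID2*, *ID1*, *ID4* and *ID3*. Of all genes, 13.7% were called higher and 28.3% lower in these cells. The 38 post-transplant cells are few, and *ID1* and *ID3* in pre-transplant cells are bounded by the floor above. Within the post-transplant cells, Pearson correlations with the sum over 320 cells were 0.25 for *ID1*, 0.24 for *ID2*, 0.14 for *ID3* and 0.25 for *ID4*.

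Compared with articular cartilage, post-transplant cyiPS-Cart again had higher levels of all 4 *ID* genes, in a comparison where 10.7% of 7621 genes were called higher and 15.8% lower. The ratio was 3.55 for *ID1* (3.40 to 3.71), 3.44 for *ID4* (3.20 to 3.69), 2.40 for *ID2* (2.35 to 2.46) and 2.10 for *ID3* (1.96 to 2.25). *ID3* was near the 2-fold line and was below it with stricter cells (log2 ratio 0.91) and with a pseudocount of 10 (0.99). In cells with a low early response, *ID1* was also just below it (0.95), and the other 3 were above. Of all genes, 17.6% were called higher and 24.7% lower in these cells.

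Reads of the *ID* genes were spread over many cells. Of 320 post-transplant cells, 94.7% had reads of *ID2* (91.6 to 96.9), 71.9% of *ID1* (66.6 to 76.7), 63.1% of *ID4* (57.6 to 68.4) and 58.4% of *ID3* (52.8 to 63.9). The corresponding shares in pre-transplant cyiPS-Cart were 41.9%, 17.8%, 33.8% and 4.69%, of which those of *ID1* and *ID3* are bounded by the floor above. The median over cells with reads also differed, since cells with *ID2* reads had a median of 132 CPM before and 1475 CPM after transplantation. In cyAC and cyFT this median of *ID2* was 405 and 676 CPM, at shares of 86.9% and 87.5%. More cells with reads and more reads in such a cell thus went together for *ID2*.

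**Figure D2:**
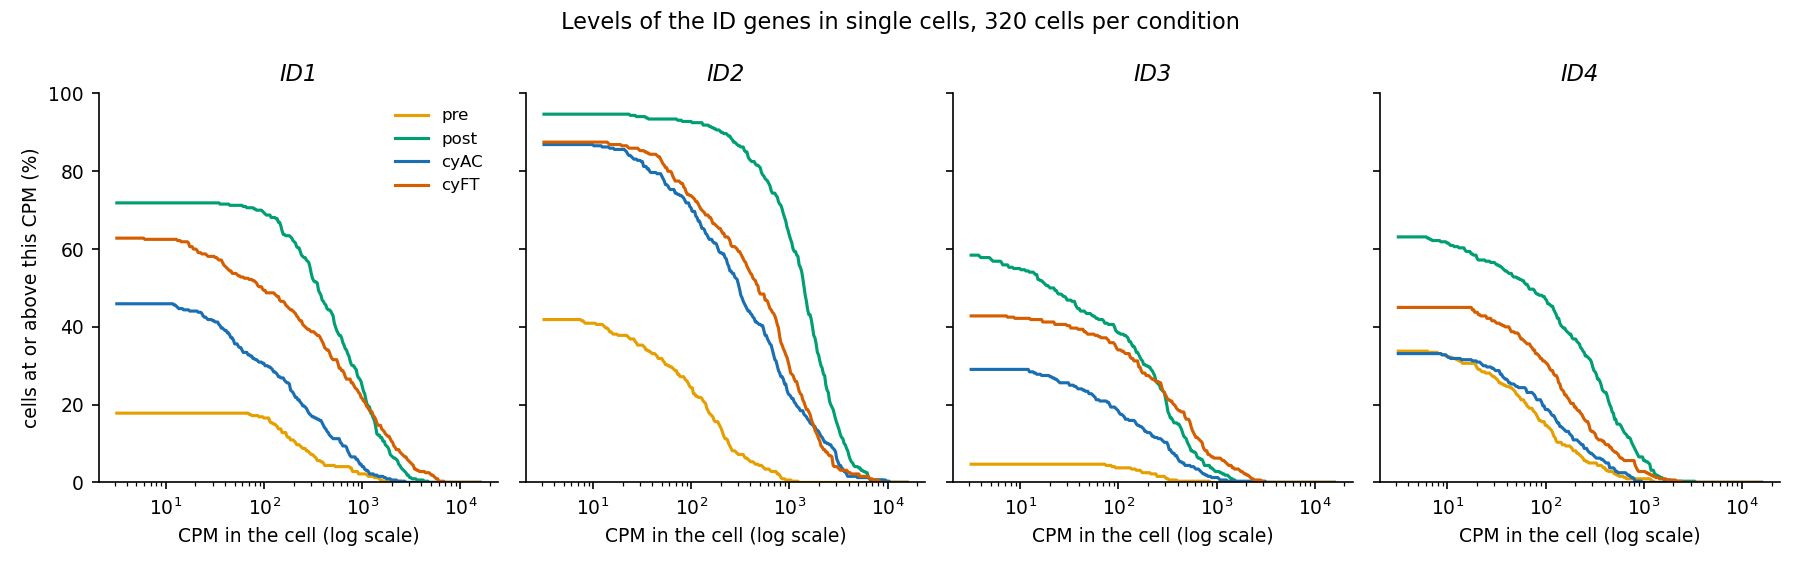
Percent of cells (y axis) at or above a given CPM of *ID1*, *ID2*, *ID3* or *ID4* in the cell (x axis, log scale) for the 4 conditions with 320 cells each. The *ID2* curve of post-transplant cyiPS-Cart lies to the right of the others over most of its length, though the highest cell was one of cyAC, and those of cyAC and cyFT end at nearly the same share, 86.9% and 87.5%.

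Counting how many of the 4 *ID* genes had reads in a cell gave the same order. Reads of at least 2 of them were found in 25.3% of pre-transplant cells (20.6 to 30.4), 63.4% of cyAC cells (57.9 to 68.7), 77.5% of cyFT cells (72.5 to 82.0) and 85.6% of post-transplant cells (81.3 to 89.3). Reads of all 4 were found in 1.88%, 9.69%, 17.2% and 37.8%, and none of the 4 had reads in 35.9%, 5.00%, 3.44% and 2.81%. After each cell was thinned to 12191 reads, the shares with at least 2 were 15.7%, 48.7%, 68.1% and 80.3%. With counts below the highest of the libraries' lowest counts set to 0 for each gene, they were 24.1%, 44.4%, 62.2% and 83.4%, in the same order. Under that setting cells with *ID1* reads made up 17.8%, 23.8%, 41.3% and 71.9%, so that the cyAC and cyFT shares of this gene depend on the floor.

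**Figure D3:**
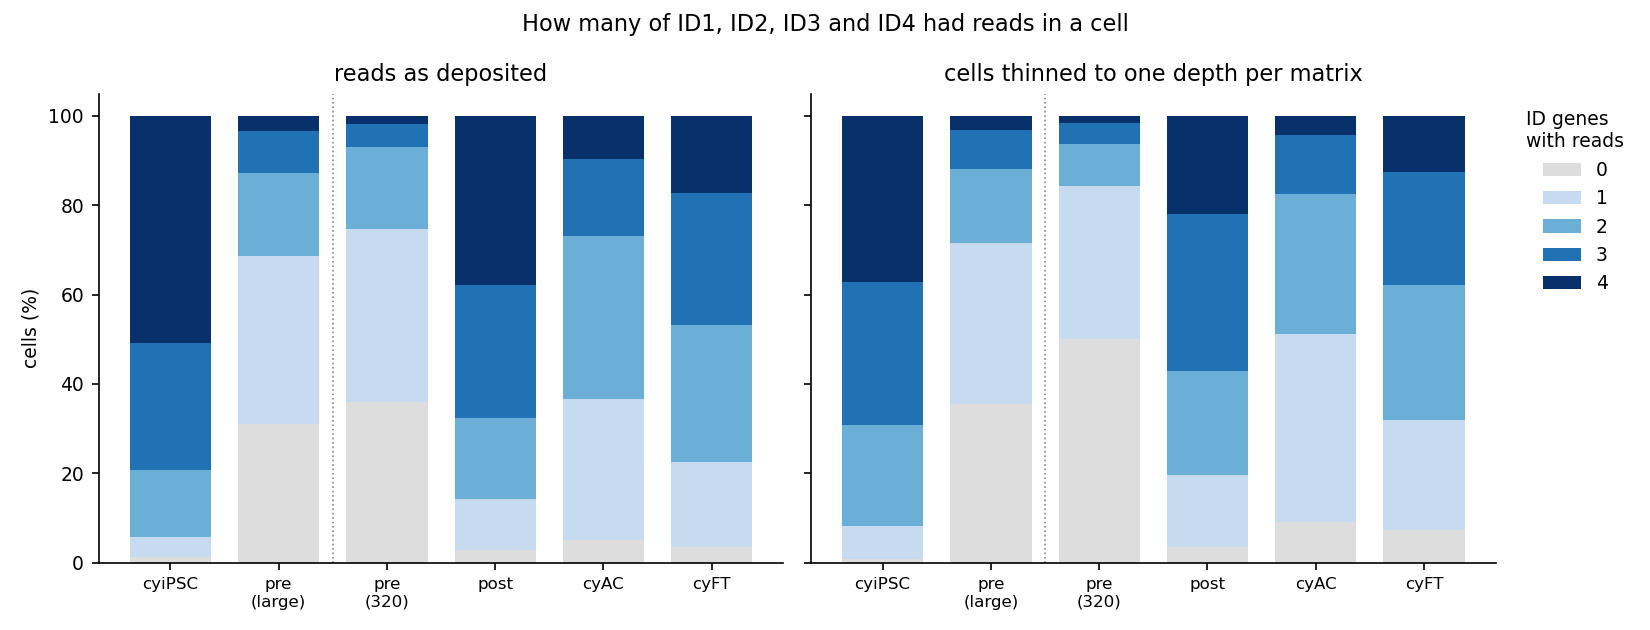
Percent of cells (y axis) with reads of 0 to 4 of the *ID* genes, by condition, with reads as deposited (left) and after thinning to 30967 reads in the matrix with cyiPSC and to 12191 reads in the 4-condition matrix (right). Cells with all 4 made up 37.8% of post-transplant and 1.88% of pre-transplant cells as deposited.

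The *ID* genes were only loosely tied to each other from cell to cell. Over 320 post-transplant cells, the 6 pairwise Pearson correlations of log2(CPM + 1) lay between 0.25 and 0.31. In cyFT, *ID1* and *ID3* had 0.44, and in cyAC *ID2* and *ID3* had -0.11. These values are descriptions, since the cells of a condition share a library and differ in depth. Among 2902 genes that were detected in every condition in 25% of cells or more, those most like *ID1* by the mean of the 4 within-condition correlations were *GADD45B* (0.21), *NR4A2* (0.18) and *COL5A2* (0.18). For *ID2* they were *KLF4* (0.18), *BTG2* (0.15) and *GADD45B* (0.14), for *ID3* *FOS* (0.19), *COL5A2* (0.15) and *OGN* (0.14), and for *ID4* *JUN* (0.18), *FOS* (0.17) and *NR4A2* (0.16). All of these means are low.

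In undifferentiated cells *ID1*, *ID3* and *ID4* were higher than in pre-transplant cyiPS-Cart. *ID1* was at 456 CPM in cyiPSC and 102 CPM in the larger set of pre-transplant cells, a ratio of 0.225 (0.222 to 0.228). *ID3* was at 271 and 20.2 CPM, a ratio of 0.0746 (0.0725 to 0.0768), and *ID4* at 146 and 59.4 CPM, a ratio of 0.408 (0.400 to 0.415). These 3 were called lower in pre-transplant cyiPS-Cart, where 37.4% of 8576 genes were called lower and 16.5% higher, so that lower calls were common in this comparison. *ID2*, at 125 and 78.0 CPM, was not called, and its log2 ratio of -0.67 lay near the median of all genes, -0.61. With TMM factors this median was 0.09, 26.4% of genes were called higher and 18.8% lower, and *ID4* was no longer called (log2 ratio -0.62). If the 0s stood for counts just below the floor, *ID1* would still be 2.66 times and *ID3* 3.10 times as high in cyiPSC.

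Shares of cells followed the levels. Reads of *ID1* were found in 90.6% of cyiPSC and 21.7% of pre-transplant cells, of *ID2* in 76.3% and 48.3%, of *ID3* in 72.6% and 8.19% and of *ID4* in 83.2% and 38.3%. All 4 *ID* genes had reads in 50.7% of cyiPSC and 3.40% of pre-transplant cells, or in 37.3% and 3.15% after thinning to 30967 reads. The 2 conditions share a library, and their early response sums were 156 and 1955 CPM, in the opposite order to the *ID* genes.

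In fibrous tissue, *ID1* and *ID3* were called higher than in cyAC and *ID2* and *ID4* were not, in a comparison where 12.2% of 7900 genes were called higher and 3.92% lower. The ratio was 2.74 for *ID1* (2.61 to 2.88) and 2.21 for *ID3* (2.05 to 2.39), against 1.74 for *ID4* (1.60 to 1.90) and 1.13 for *ID2* (1.10 to 1.16). With TMM factors 8.71% of genes were called higher and 5.60% lower, *ID3* was not called (log2 ratio 0.95) and the log2 ratio of *ID2* was -0.01. Both conditions came from the same library. The early response sum was also higher in cyFT, and in cells with a low sum *ID1* was still called (1.41) and *ID3* was not (0.67). cyFT also had 718.7 CPM of 8 listed immune genes and 20 of 320 cells with reads of at least 3 of them, against 41.6 CPM and 4 cells in cyAC, and the part of these cells in the ratios was not tested.

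The cyFT values were not uniform over cells with different collagens. Among cells with *COL2A1* reads and no *COL1A1* reads, *ID1* was at 93.1 CPM in 84 cyFT cells and 178 CPM in 276 cyAC cells. *ID3* was at 39.1 and 72.0 CPM in the same cells. In this class the 2 genes were thus lower in cyFT than in cyAC, with log2 ratios of -0.93 and -0.87, opposite to the whole sample. Of all genes, 8.33% were called higher and 7.85% lower in this class. The class is set by reads of 2 genes alone, and whether it holds cells of the same kind in both conditions was not tested. In the 170 cyFT cells with *COL1A1* reads and no *COL2A1* reads, *ID1* was at 1030 CPM and *ID3* at 358 CPM. *ID2* varied less, at 778 and 989 CPM in the cyFT cells with *COL2A1* only and *COL1A1* only. The cells with *COL2A1* only were deeper, with a median of 47802.5 reads against 21830.

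In pre-transplant cyiPS-Cart the collagen classes had the opposite order for *ID1*. In the larger set, *ID1* was at 136 CPM in 2588 cells with *COL2A1* only (134 to 138), 24.0 CPM in 674 cells with both and 18.3 CPM in 254 cells with *COL1A1* only. *ID4* was at 74.7, 23.1 and 21.3 CPM, and *ID3* at 24.6, 8.93 and 13.3 CPM. If 0s stood for counts just below the floor, the whole larger set would be at 171 CPM of *ID1* and 87.6 CPM of *ID3*. How the classes would then differ in these 2 genes was not tested. *ID2* was at 78.3, 70.7 and 99.4 CPM, highest in the cells with *COL1A1* only. Among post-transplant cells, of which 265 had *COL2A1* only, *ID1* was at 694 CPM in these and 451 CPM in 47 cells with both collagens. Within cells with *COL2A1* only, all 4 *ID* genes were called higher in post-transplant than in pre-transplant cyiPS-Cart and than in cyAC. Of all genes in this class, 9.72% were called higher and 18.7% lower after than before transplantation. Against cyAC these shares were 11.5% and 17.0%.

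**Figure D4:**
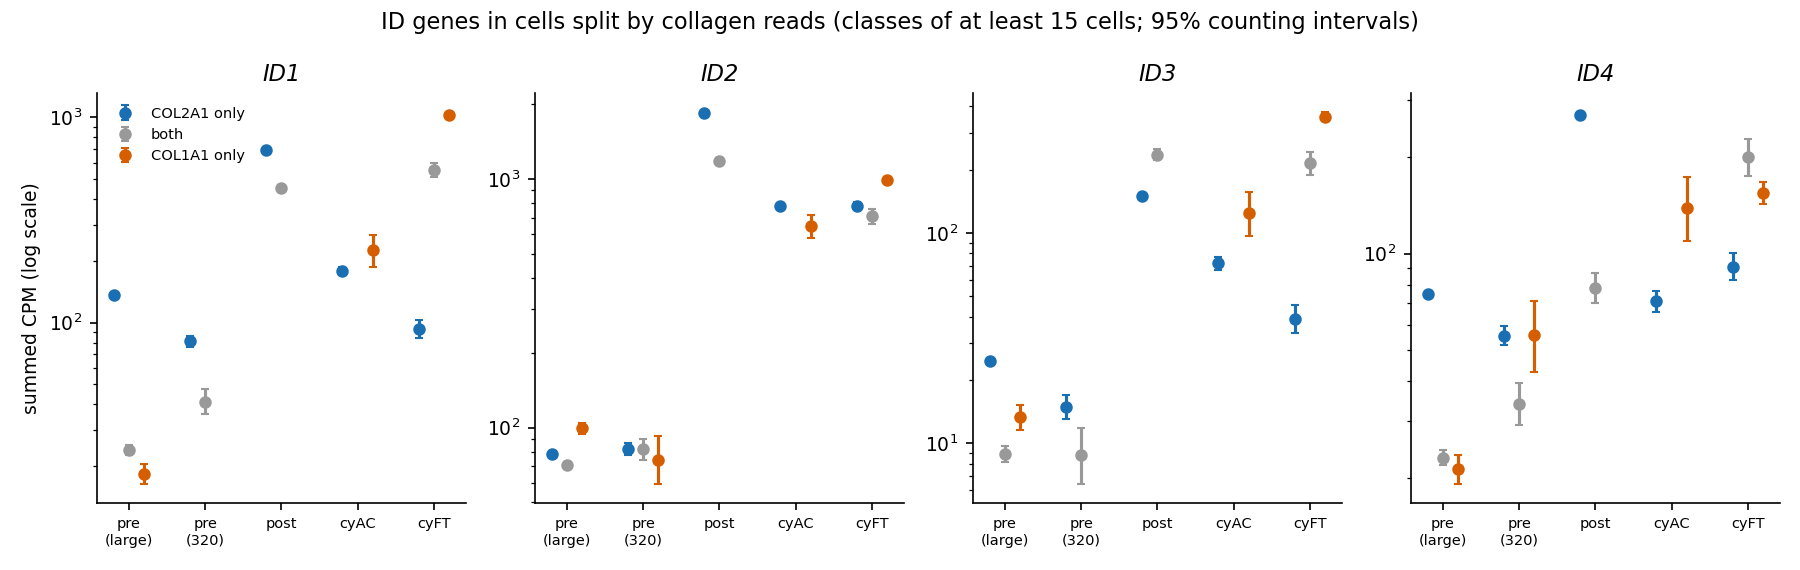
Summed CPM (log axis) of the *ID* genes in cells with reads of *COL2A1* only (blue), of both collagens (grey) and of *COL1A1* only (orange), with 95% counting intervals. Classes under 15 cells or with no reads of the gene are not drawn. *ID1* was at 93.1 CPM in cyFT cells with *COL2A1* only and 1030 CPM in those with *COL1A1* only, whereas the 3 classes of the larger pre-transplant set had the opposite order in counts as deposited.

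The ligand *BMP2* drives cartilage and bone formation. It was at 2.82 CPM in cyiPSC and 51.3 CPM in the larger pre-transplant set, a ratio of 18.2 (17.1 to 19.3), and reads were found in 6.92% and 40.1% of the cells, or 2.58% and 35.1% after thinning. In cyiPSC 1 cell held 19.0% of the *BMP2* reads, the log2 ratio was 4.74 without the highest 1% of cells against 3.78, and the part of free RNA was not tested. In the 4-condition matrix it was at 44.2 CPM in pre-transplant and 135 CPM in post-transplant cyiPS-Cart, and at 165 CPM in cyFT and 236 CPM in cyAC. The order of post-transplant cyiPS-Cart and cyFT depends on the scaling, as averaging CPM over cells gave 147 and 114 and the level after thinning 139 and 127 CPM, and 1 cyFT cell held 13.1% of the *BMP2* reads there. The shares of cells with reads were 36.6% before and 51.6% after transplantation, 35.3% for cyFT and 51.3% for cyAC. Thinned to equal depth they were 24.8%, 36.6%, 31.9% and 42.2%, so that cyFT then lay above the pre-transplant cells and cyAC above the post-transplant cells. *BMP2* was called higher in post-transplant than in pre-transplant cyiPS-Cart (ratio 3.06, 2.85 to 3.29) and was not called between post-transplant cyiPS-Cart and cyAC (0.572, 0.545 to 0.600) or between cyFT and cyAC (0.700, 0.659 to 0.743). In cells with *COL2A1* only, the level in cyFT was above that in cyAC instead, at 358 and 264 CPM, and in the cyFT cells with *COL1A1* only it was 46.4 CPM. The transcripts counted are those of the cells and not the BMP2 protein added to the medium.

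The *BMP2* ratio moved with the early response. In cells with an early response sum of at most 1470 CPM, *BMP2* was at 34.8 CPM in pre-transplant and 15.8 CPM in post-transplant cyiPS-Cart, a log2 ratio of -1.09, so that its direction turned. It was at 252 CPM in cyAC and 159 CPM in cyFT in such cells, so that *BMP2* was called lower in post-transplant cyiPS-Cart than in cyAC there (log2 ratio -3.91). The 38 post-transplant cells of that kind are few, and the *ID* genes kept their direction in the same cells.

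*BMP4*, a ligand of early mesoderm, had the opposite course during differentiation. It was at 33.7 CPM in cyiPSC and 1.42 CPM in the larger pre-transplant set (ratio 0.0422, 0.0378 to 0.0470), with reads in 46.7% and 3.43% of the cells. Over the 2500 cyiPSC, Pearson correlations with *BMP4* were 0.28 for *ID2*, 0.20 for *ID1*, 0.18 for *ID3* and 0.10 for *ID4*. In the 4-condition matrix it stayed under the minimum of 10 CPM, at 1.22 CPM in pre-transplant cyiPS-Cart, 9.78 in post-transplant cyiPS-Cart, 2.37 in cyAC and 7.58 in cyFT. The intervals of pre-transplant cyiPS-Cart and cyAC overlapped, as did those of post-transplant cyiPS-Cart and cyFT, whose means of per-cell CPM had the opposite order, 9.10 and 12.8. *BMP4* was near the minimum, and under TMM factors it passed it and was called higher in post-transplant cyiPS-Cart than before transplantation (log2 ratio 2.46) and than in cyAC (1.79), as it was in cyFT over cyAC with the mean over cells (2.45). Few cells carried these reads, 9 of 320 before and 30 of 320 after transplantation, 3 in cyAC and 15 in cyFT.

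Transcripts of *GDF5*, the ligand that marks joint progenitors, were few in every condition. There were 6 reads in cyiPSC and 52 in the larger pre-transplant set, or 0.0144 and 0.216 CPM, in 3 of 2500 and 26 of 3527 cells. The 4-condition matrix held 5 reads in pre-transplant cyiPS-Cart, 15 in post-transplant cyiPS-Cart, 15 in cyAC and 4 in cyFT, in 2, 7, 5 and 2 cells. The level was highest in cyAC at 1.27 CPM (0.710 to 2.09). The ratio to cyAC was 0.396 for post-transplant cyiPS-Cart (0.180 to 0.870) and 0.284 for cyFT (0.0687 to 0.893), but 60.0% of the cyAC reads were in 1 cell, and the intervals treat reads as independent. In cells with a low early response cyAC had no *GDF5* reads, and the log2 ratio of post-transplant cyiPS-Cart to cyAC was 0.70 instead of -0.59.

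The antagonist *GREM1*, which binds BMP2 and BMP4, was at 3.10 CPM in cyiPSC and 143 CPM in the larger pre-transplant set, a ratio of 46.3 (43.8 to 49.0). Its reads were found in 75.1% of these pre-transplant cells. In cyiPSC, 25.6% of cells had reads, but these were 1287 reads over 639 cells, the share was 7.83% after thinning, and the cells shared a library with the pre-transplant cells, so that the part of free RNA in them was not tested. In the 4-condition matrix *GREM1* was at 141 CPM in pre-transplant cyiPS-Cart, 130 in post-transplant cyiPS-Cart and 187 in cyAC, but at 17.2 CPM in cyFT. The ratio of cyFT to cyAC was 0.0922 (0.0791 to 0.107), and 17.2% of cyFT cells had reads against 55.6% of cyAC cells.

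The *GREM1* difference between cyFT and cyAC was also present in cells with *COL2A1* only, at 26.6 CPM in cyFT and 211 CPM in cyAC. In cells with *COL1A1* only, *GREM1* was at 11.1 CPM in 170 cyFT cells and 1.83 CPM in 16 cyAC cells, which are too few to compare. In post-transplant cyiPS-Cart the level was like that before transplantation (ratio 0.922, 0.879 to 0.967, with a log2 ratio of 0.11 under TMM factors), while the share of cells with reads was 41.6% against 74.4%, or 33.4% against 56.1% after thinning. A like level thus came from fewer cells with more reads, since the median over cells with reads was 192 CPM after and 130 CPM before transplantation.

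Cells with and without reads of a ligand or antagonist did not split by *ID* level in a common way. In the larger pre-transplant set, *ID1* was at 63.8 CPM in 1416 cells with *BMP2* reads and 134 CPM in 2111 cells without. In cyFT it was at 273 and 709 CPM, but in post-transplant cyiPS-Cart at 724 and 553 CPM. Cells with *BMP2* reads were deeper, with medians of 68458 against 52774, 42502 against 23419 and 87294 against 65775 reads. For *GREM1*, *ID1* was at 111 CPM in cells with reads and 69.1 CPM in those without in the larger pre-transplant set, and at 637 and 666 CPM in post-transplant cyiPS-Cart. Pearson correlations of *ID1* with *GREM1* lay between -0.03 and 0.16 over the 6 sets of cells.

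The 10 genes were then set beside the rest of a pathway list of 77 genes, of which 64 were listed in the matrix with cyiPSC and 66 in the 4-condition matrix. Of 7 members past the minimum, 2 were called higher and 4 lower in pre-transplant cyiPS-Cart than in cyiPSC, where 16.5% and 37.4% of all genes tested were. Of 6 past the minimum, 5 were higher and 0 lower in post-transplant than in pre-transplant cyiPS-Cart (8.92% and 18.5% of all genes), 4 higher and 0 lower in post-transplant cyiPS-Cart than in cyAC (10.7% and 15.8%), and 2 higher and 1 lower in cyFT than in cyAC (12.2% and 3.92%). In the other pathway genes past the minimum, the counts in these comparisons were 14 higher and 7 lower of 32, 7 and 8 of 30, 4 and 12 of 37, and 10 and 3 of 40. The counts over the whole list moved with the setting. With TMM factors they went from 16 higher and 11 lower to 22 and 6 in pre-transplant cyiPS-Cart over cyiPSC, and from 12 to 6 higher in cyFT over cyAC. In cells with *COL2A1* only, cyFT over cyAC went from 12 higher and 4 lower to 3 and 6, while the shares of all genes went from 12.2% and 3.92% to 8.33% and 7.85%. With TMM factors these shares were 26.4% and 18.8% in pre-transplant cyiPS-Cart over cyiPSC, and 8.71% higher in cyFT over cyAC. The counts by role below are small and are descriptions to be read against the shares of all genes just given.

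**Figure D5:**
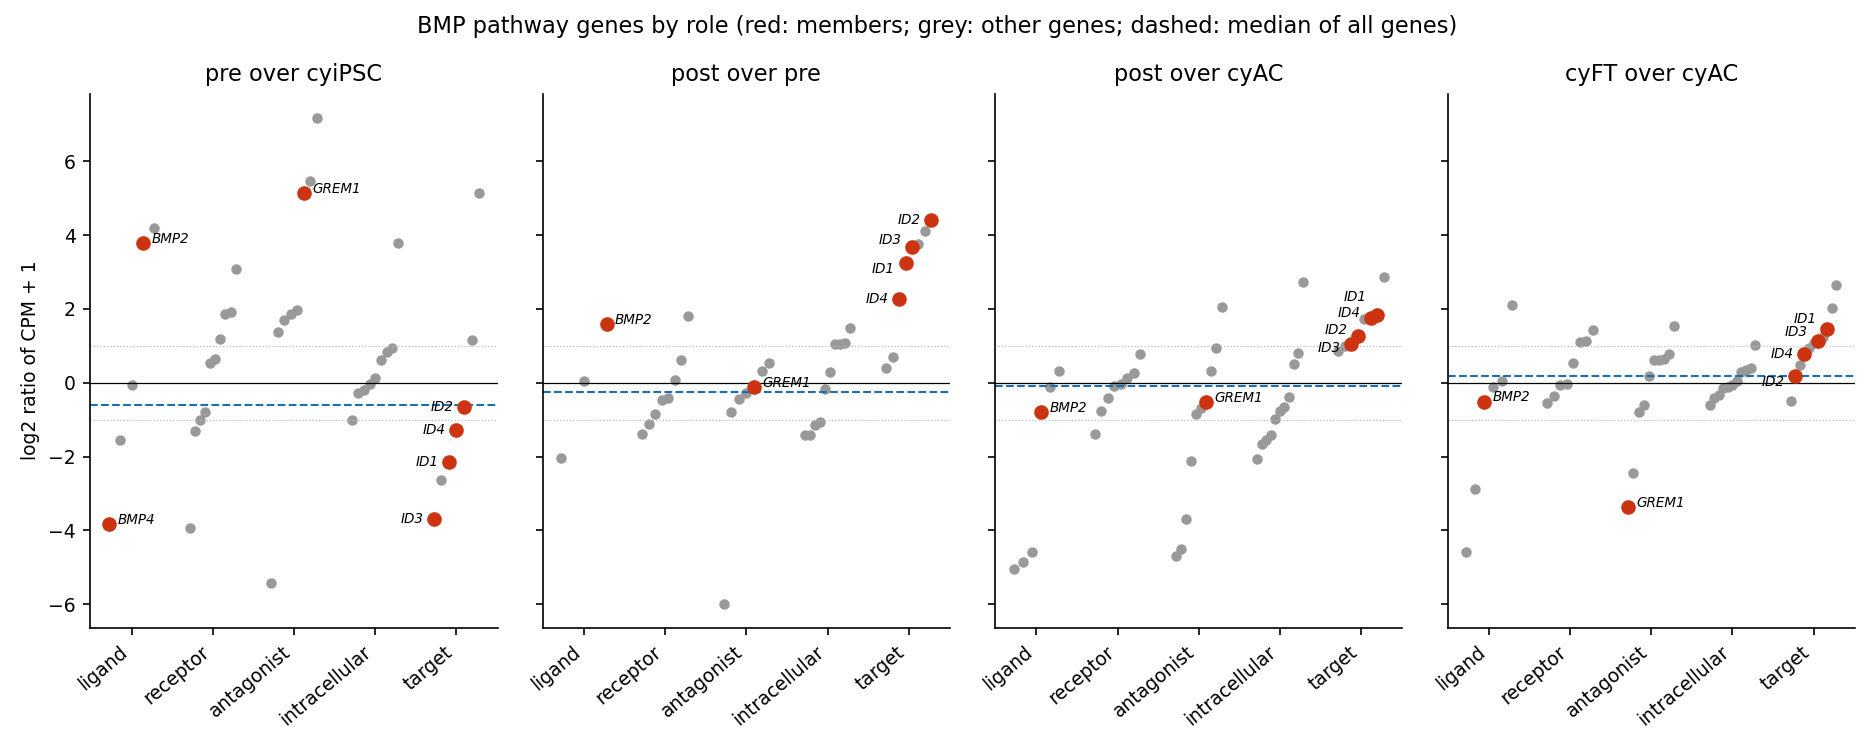
Log2 ratio of CPM + 1 (y axis) of pathway genes with at least 10 CPM in either condition, by role (x axis) and comparison, with the 8 members in red where they pass the minimum, dotted lines at 2-fold and a dashed line at the median of all genes. All 4 *ID* genes lie above the upper dotted line in both comparisons of post-transplant cyiPS-Cart, and *GREM1* lies far below the lower one in cyFT.

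The other targets of the list behaved in part like the *ID* genes. Of 8 targets past the minimum, 6 were called higher in post-transplant than in pre-transplant cyiPS-Cart and none lower, the *ID* genes included. *HES1*, a repressor also driven by Notch, was at 4.09 and 87.2 CPM in pre-transplant and post-transplant cyiPS-Cart, and *DLX5*, a homeobox gene of skeletal cells, at 0.704 and 22.2 CPM. Against cyAC, 6 of 8 were higher in post-transplant cyiPS-Cart, among them *HES1* (log2 ratio 2.87) and the homeobox gene *MSX2* (1.73). In cyFT against cyAC, 6 of 11 were higher, led by *DLX3* (2.66) and the Notch and BMP target *HEY1* (2.03), with *COL10A1*, the collagen of hypertrophic cartilage, at 1.23. In cells with *COL2A1* only, *DLX3* and *HEY1* had log2 ratios of -0.90 and -0.01 instead. Between cyiPSC and pre-transplant cyiPS-Cart, *SOX9*, the master regulator of cartilage, was at 13.8 and 527 CPM, whereas *HES1* was at 28.1 and 3.67 CPM.

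*BMP6* and *BMP7* are ligands outside the 10 genes. *BMP6* was at 1.72 CPM in cyiPSC and 48.6 CPM in pre-transplant cyiPS-Cart (log2 ratio 4.19), and *BMP7* at 44.1 and 14.5 CPM (-1.54). *BMP6* was then lower in post-transplant than in pre-transplant cyiPS-Cart, at 12.3 and 53.9 CPM (-2.04), and at 60.8 CPM in cyFT. *GDF10* was at 115 CPM in cyAC and 119 CPM in cyFT but 2.51 CPM in post-transplant cyiPS-Cart, where cyAC and cyFT share a library and post-transplant cells do not. *GDF6* was at 36.1 CPM in cyAC, with reads in 5.31% of cells, and 0.268 CPM in post-transplant cyiPS-Cart. *BMP3* had no reads in post-transplant cyiPS-Cart or cyFT and was at 22.8 CPM in cyAC, in 6.25% of cells. Of the 6 ligands past the minimum, 3 were thus called lower and none higher in post-transplant cyiPS-Cart than in cyAC.

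Antagonists were the role with the most higher calls during differentiation, with 7 of 8 higher and 1 lower in pre-transplant cyiPS-Cart than in cyiPSC. *CHRDL2*, a chordin-like protein of cartilage, was at 2.00 and 435 CPM (log2 ratio 7.18), and the secreted protease *HTRA1* at 37.6 and 1715 CPM (5.47). *FST*, which binds activins and some BMPs, was at 541 and 11.7 CPM (-5.42). After transplantation 1 of 7 was called, *CHRDL2*, at 488 CPM before and 6.73 CPM after (-5.98). Post-transplant cyiPS-Cart also had less *NBL1* (log2 ratio -4.71), *SOST* (-4.51), *CHRDL2* (-3.69) and *BMPER* (-2.13) than cyAC, where 4 of 10 antagonists were lower and 1 higher. *NBL1* was at 11.6 CPM before transplantation and 310 CPM in cyFT, and *BMPER* at 2.68 and 49.7 CPM. cyAC and cyFT share a library, and the cells before and after transplantation came from others. In cyFT, *SOST* was the other lower antagonist beside *GREM1*, at 5.59 CPM against 34.7 CPM in cyAC, and *CHRDL1* was the higher one (log2 ratio 1.55, but -0.75 in cells with *COL2A1* only).

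Receptors and co-receptors went both ways during differentiation. *ACVR1*, a type I receptor, was at 18.1 CPM in cyiPSC and 71.6 CPM in pre-transplant cyiPS-Cart, and *BMPR2*, the type II receptor, at 24.8 and 92.4 CPM, while *ACVR2B* was at 53.6 and 2.54 CPM and *ENG* at 1.17 and 17.4 CPM. Here 4 of 10 were called higher and 3 lower, beside 16.5% and 37.4% of all genes. In post-transplant against pre-transplant cyiPS-Cart, *TGFBR3* was higher (log2 ratio 1.81) and *BMPR2* (-1.38) and *ENG* (-1.12) were lower, out of 8. *BMPR2* was also the 1 of 8 receptors called against cyAC, at 33.2 CPM in post-transplant cyiPS-Cart and 88.3 CPM in cyAC. In cyFT, *ACVR1* (1.44), *RGMB* (1.14) and *ENG* (1.10) were higher than in cyAC, although *RGMB* was at -0.21 in cells with *COL2A1* only.

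Among intracellular genes, 4 of 10 were higher and 4 lower in post-transplant than in pre-transplant cyiPS-Cart. *SMAD9*, which carries the BMP signal, had a log2 ratio of 1.48, and the ubiquitin ligases *SMURF2* and *SMURF1*, which remove SMADs and receptors, had -1.42 and -1.14. *PMEPA1*, an inhibitor induced by TGF-β, was at 13.8 CPM in cyiPSC, 202 CPM in the larger pre-transplant set and 75.7 CPM in post-transplant cyiPS-Cart. Against cyAC, *BAMBI*, a decoy receptor induced by BMP, was higher in post-transplant cyiPS-Cart, at 294 and 43.8 CPM, and *SMURF1* (-2.08), *SKIL* (-1.65) and *SKI* (-1.55) were lower, in a count of 1 higher and 4 lower of 11. *BAMBI* was also called higher in post-transplant than in pre-transplant cyiPS-Cart, at 294 and 140.0 CPM, but in cells with a low early response it was at 147 CPM in pre-transplant and 77.3 CPM in post-transplant cyiPS-Cart. In cyFT against cyAC, *SMAD4* alone was called, at 94.7 and 46.4 CPM.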

How the data were processed

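TAS-Seq transcriptomes of 5 conditions were analysed, and hashtag libraries were not used here. The deposited values are counts of reads for each gene in each cell, held in 2 matrices. The methods describe no counting of molecular identifiers. The authors assigned reads to Ensembl transcripts of *Macaca fascicularis* with Bowtie2 (the submitters' processing notes give versions 2.4.2, cutadapt 3.4 and R 3.6.3), kept cells above the knee plot's inflection point, separated samples by hashtag, set low counts of strongly expressed genes to 0 as background, filtered on mitochondrial reads, and reduced 1 matrix to 320 cells per condition. Low counts and shares of cells of such genes may therefore be understated. Cells were taken to conditions by the prefixes of their names.

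Counts were summed per condition and scaled to CPM with Python 3.11.15, numpy 2.4.6 and scipy 1.17.1. The total was 415457877 reads in cyiPSC, 240368262 in the larger pre-transplant set and 11087496 to 29855420 in the 4 conditions of 320 cells. Ratios used CPM + 1, a minimum of 10 CPM and a 2-fold threshold. There was 1 sample per condition and no test. Shares were also computed after thinning each cell to the 10th percentile of the shallowest condition. These steps were tested on simulated counts. Alternatives were TMM factors (edgeR 4.0.16), CPM without mitochondrial genes, mean per-cell CPM, leaving out the top 1% of cells, stricter cells (at least 500 genes, mitochondrial share no more than 3 median absolute deviations over the median), removal of doublets marked by scrublet (scanpy 1.11.5), pseudocounts of 0.1 and 10, minimums of 0 and 50 CPM, the larger pre-transplant set, and detection at 2 or 10 reads. Equal lowest counts, cells with *COL2A1* only and cells with a low early response were added after seeing the data. Scrublet marked 0.232% of the 6027 cells of the larger matrix, too few for it to count as working there, and 0.625% of 640 cells of the cyAC and cyFT library, where leaving them out checks little.

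The members and lists were chosen with earlier results of these data known. Named were all members, at most 4 pathway genes per role and comparison by size of ratio among those called, values of such a gene in the other conditions, and for each *ID* gene the 3 genes with the highest mean correlation. *BAMBI* between pre-transplant and post-transplant cells, and the collagen classes, were chosen after their values were seen.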

Additional observations from a re-analysis of the deposited data

How the results depend on the processing

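Each comparison rested on 1 sample per condition, so that no spread between animals or cultures could be set against a ratio, and the intervals cover counting error only. The authors' removal of low counts limits what the shares of cells show for *ID1* and *ID3*. For 18 called ratios of the members, 227 alternative values were computed, of which 224 had the same direction and 217 were called the same way. Pseudocounts and minimums cannot change a direction, and a pseudocount of 0.1 or no minimum cannot remove a call. Part of these counts was thus fixed in advance. TMM factors moved the median log2 ratio of all genes by 0.70, 0.24, 0.12 and -0.19 in the comparisons of pre-transplant cells with cyiPSC, of post-transplant with pre-transplant cells, of post-transplant cells with cyAC and of cyFT with cyAC.

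The number of members called higher in cyFT than in cyAC was 2, against 1 with TMM factors, 4 with the mean of per-cell CPM, 0 in cells with *COL2A1* only and 1 in cells with a low early response. Of all genes, 12.2% were called higher there, against 8.71%, 14.2%, 8.33% and 14.4% under these settings. In cells with a low early response, 1 member instead of 0 was called lower in post-transplant cyiPS-Cart against both pre-transplant cyiPS-Cart and cyAC, namely *BMP2*. Against 18.5% and 15.8% of all genes in the main setting, 28.3% and 24.7% were called lower in these cells. There, 3 log2 ratios of post-transplant over pre-transplant cyiPS-Cart turned direction, *BMP2* at -1.09, *BAMBI* at -0.92 and *SMAD7* at -0.19, as did that of *MSX2* in cyFT over cyAC at -0.069 and the uncalled one of *GDF5* in post-transplant cyiPS-Cart over cyAC at 0.70 (0.021 without the highest 1% of cells). The uncalled *ID2* in cyFT over cyAC was at -0.0077 with TMM factors. In cells with *COL2A1* only, called log2 ratios of cyFT over cyAC turned for *ID1* (-0.93), *ID3* (-0.87), *DLX3* (-0.90), *CHRDL1* (-0.75), *RGMB* (-0.21), *HEY1* (-0.013) and *GDF6* (1.29), and among members without a call there for *BMP2* (-0.51 to 0.44) and *BMP4* (1.35 to -0.13). Counts of called pathway genes moved by over 1.5 times in pre-transplant cyiPS-Cart over cyiPSC (11 lower, but 6 with TMM factors or a minimum of 50 CPM), post-transplant over pre-transplant cyiPS-Cart (8 lower, but 5 with TMM factors or that minimum and 4 with a pseudocount of 10), post-transplant cyiPS-Cart over cyAC (12 lower, but 5 with that minimum) and cyFT over cyAC (12 higher, but 6 with TMM factors, a pseudocount of 10 or that minimum and 3 in cells with *COL2A1* only, and 4 lower, but 1 with that minimum). Of all genes, lower calls went from 37.4% to 18.8% with TMM factors in pre-transplant cyiPS-Cart over cyiPSC. In post-transplant over pre-transplant cyiPS-Cart they went from 18.5% to 12.8%, or 10.98% with a pseudocount of 10. Higher calls in cyFT over cyAC went from 12.2% to 8.71% and 5.75% under these settings. The minimum of 50 CPM gave 8.89% there. Its lower calls were 38.4%, 22.2%, 18.4% and 3.99% in the order above, against 37.4%, 18.5%, 15.8% and 3.92%. The settings by cell class use fewer cells, and the cause was not tested. *BMP4* did not reach a minimum of 50 CPM in either of cyiPSC and pre-transplant cyiPS-Cart.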

Other observations

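Cells with and without reads of *PRG4*, the lubricant protein of the cartilage surface, differed in *ID* level in some conditions. In the larger pre-transplant set, *ID2* was at 47.6 CPM in 610 cells with *PRG4* reads and 84.9 CPM in 2917 cells without. In post-transplant cyiPS-Cart, *ID3* was at 155 CPM in 227 cells with and 240.4 CPM in 93 cells without, whereas *ID1* was at 659.6 and 630 CPM. In cyFT, *ID1* was at 478 CPM in 279 cells with and 906 CPM in 41 cells without. In cyAC, 311 of 320 cells had *PRG4* reads. These are values of 1 sample each.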
